A study of Homo sapiens with 6 samples.

Results

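Kinesins are motor proteins that walk along microtubules, and their genes were followed here in 6 RNA sequencing libraries of HEK293T cells. HEK293T is an established human embryonic kidney line. The members were the protein-coding genes whose symbol is KIF followed by a number, together with KIFC1, KIFC2 and KIFC3. This rule found 42 genes among 57500 Ensembl gene identifiers, and it used no measured value. KIF28P has such a symbol but is annotated as a pseudogene and was left out. By what is known of their work the members were placed in 3 classes, with 14 mitotic kinesins, 17 transport kinesins and 11 ciliary and other kinesins. Of the 42 members, 35 had at least 1 TPM (a level corrected for gene length and scaled to the same total in each library) in at least 3 libraries and were tested, namely 12 mitotic, 17 transport and 6 ciliary and other genes.

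The 3 control libraries are labelled as wild-type cells with a vector control and carry mock in their titles. The 3 PRMT1 libraries are labelled PRMT1 OV, for overexpression, and their cells were transfected by means of PolyJet with the plasmid pcDNA3 carrying PRMT1. PRMT1 is an arginine methyltransferase and makes most of the asymmetric dimethylarginine of the cell. Transfection is described for the overexpression cells only. Whether controls were given an empty plasmid, how long after transfection RNA was taken and whether replicates were separate cultures is not in the labels. A p-value therefore measures only how much these 3 and 3 libraries vary, which may be technical.

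Kinesins turn the energy of ATP into steps along a microtubule. Mitotic kinesins build and focus the spindle, move and align chromosomes, shorten microtubule ends and bundle the central spindle for cytokinesis, and many of their transcripts rise as cells approach mitosis. Transport kinesins carry vesicles, organelles, messenger RNA and ciliary cargo, mostly toward the plus ends of microtubules, and bind their cargo through light chains and adaptors. The remaining members include regulators of the primary cilium, of Hedgehog signalling and of microtubule length.

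The libraries corresponded to between 18196736 and 23163811 recovered reads. On the scale of a gene of 1 kb, 3 reads equalled 0.459 to 0.526 TPM, which covers counting error only. The tested kinesins had a median exonic length of 6131 bases, so the same level rests on more reads in most of them. PRMT1 itself was at 381 ± 14.7 TPM in the controls and 73158 ± 11091 TPM in the PRMT1 libraries (SD, n = 3 each). Vector control library 3 and PRMT1 library 2 stood apart from the other libraries of their groups. PRMT1 library 2 was the highest PRMT1 library in 59.9% of all tested genes, and vector control library 3 the lowest control in 55.6%. The same pair held these places in 26 and 24 of the 35 tested kinesins. Of 23 markers of other cell types, 14 were under 1 TPM in every library and CD3E was at 0 throughout. Their summed level was 33.1 to 42.4 TPM in controls and 32.1 to 35.1 TPM in PRMT1 libraries. The largest part was COL1A1, at 12.2 to 16.7 TPM in controls and 9.27 to 10.4 TPM in PRMT1 libraries. Of genes read as features of the HEK293 line, VIM lay between 427 and 667 TPM, NEFM between 288 and 616 TPM and PAX2 between 3.40 and 4.14 TPM. The label calls the tissue epithelial: KRT8 and KRT18 lay between 75.6 and 100.4 TPM and EPCAM between 3.66 and 4.45 TPM, whereas KRT19 was at 0 in all controls and at most 0.375 TPM in a PRMT1 library. In bulk RNA, more cells in a given state and more RNA per cell cannot be told apart.

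Kinesin transcripts were on balance higher in the PRMT1 libraries, with the largest log2 fold changes in KIF15, KIF18A and KIF7 among members that reached 1 TPM in both groups, and the calls differed between the classes. With limma on log2(TPM + 1) and Benjamini-Hochberg adjustment over 15341 genes at a threshold of 0.05, 24 of 35 tested members were higher, 0 were lower and 11 did not pass. Of all tested genes, 40.3% were called higher and 8.64% lower. By class, 11 of 12 mitotic, 8 of 17 transport and 5 of 6 ciliary and other kinesins were higher. KIF24, with 0 controls at 1 TPM, and KIF27, with 1, reached the filter only through their PRMT1 libraries, which favours a call as higher. Over the 33 members at 1 TPM or more in all 6 libraries, 22 were higher and 0 lower, against 40.8% and 9.62% of the 12874 genes at that level, and 3 of the 4 such ciliary and other kinesins were higher. The median log2 fold change was 0.66 for mitotic, 0.40 for transport and 0.73 for ciliary and other kinesins, beside 0.30 for all tested genes. These medians and counts describe the lists and were not tested against other genes. The values of the 3 control and 3 PRMT1 libraries did not overlap in 28 tested members, of which 27 were higher in the PRMT1 libraries and 1, KIFC2, was lower. By the same reading 49.8% of all tested genes were higher and 11.6% lower.

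Because the median of all tested genes was itself 0.30 higher in the PRMT1 libraries, each value was also taken after median-of-ratios scaling, which sets libraries so that the typical gene has the same level. That scaling moved the all-gene median to -0.01, by more than 0.1. Under it, 12 members were higher and 5 lower, where 22.5% of all genes were higher and 25.5% lower. For the 33 members at 1 TPM or more in all 6 libraries, 11 were higher and 5 lower. Of all genes at that level, 21.8% were higher and 29.2% lower. The 8 mitotic kinesins called higher then stood beside 1 called lower, KIF22. Among transport kinesins, 2 were higher and 4 lower, and among ciliary and other kinesins 2 were higher and 0 lower. KIF24 was among the latter, and 1 of the 4 ciliary and other kinesins at 1 TPM in all 6 libraries was higher. The 10 members called higher on TPM as deposited and under each of 5 alternatives (median-of-ratios scaling, quantiles, PRMT1 taken out, a correction for GC content, and both vector control 3 and PRMT1 2 left out) were KIF11, KIF15, KIF18A, KIF18B, KIF20A and KIFC1 of the mitotic class, KIF3B and KIF16B of the transport class, and KIF7 and KIF24, the last with the limit just given. The other 14 of the 24 calls were each lost under 1 or more of these alternatives. How many of all tested genes were called higher in all 6 settings was not counted, so these 10 have no background beside them. Under quantile normalization (20.3% of all genes higher, 19.4% lower), 10 members were higher and 5 lower, and under the GC correction (23.4% and 25.4%) 11 were higher and 3 lower. KIF24 is among the higher members in both, with the same limit. Rescaling without PRMT1 (49.2% and 5.74%) and leaving out both libraries that stood apart (37.2% and 13.8%) were the other settings.

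**Figure D1:**
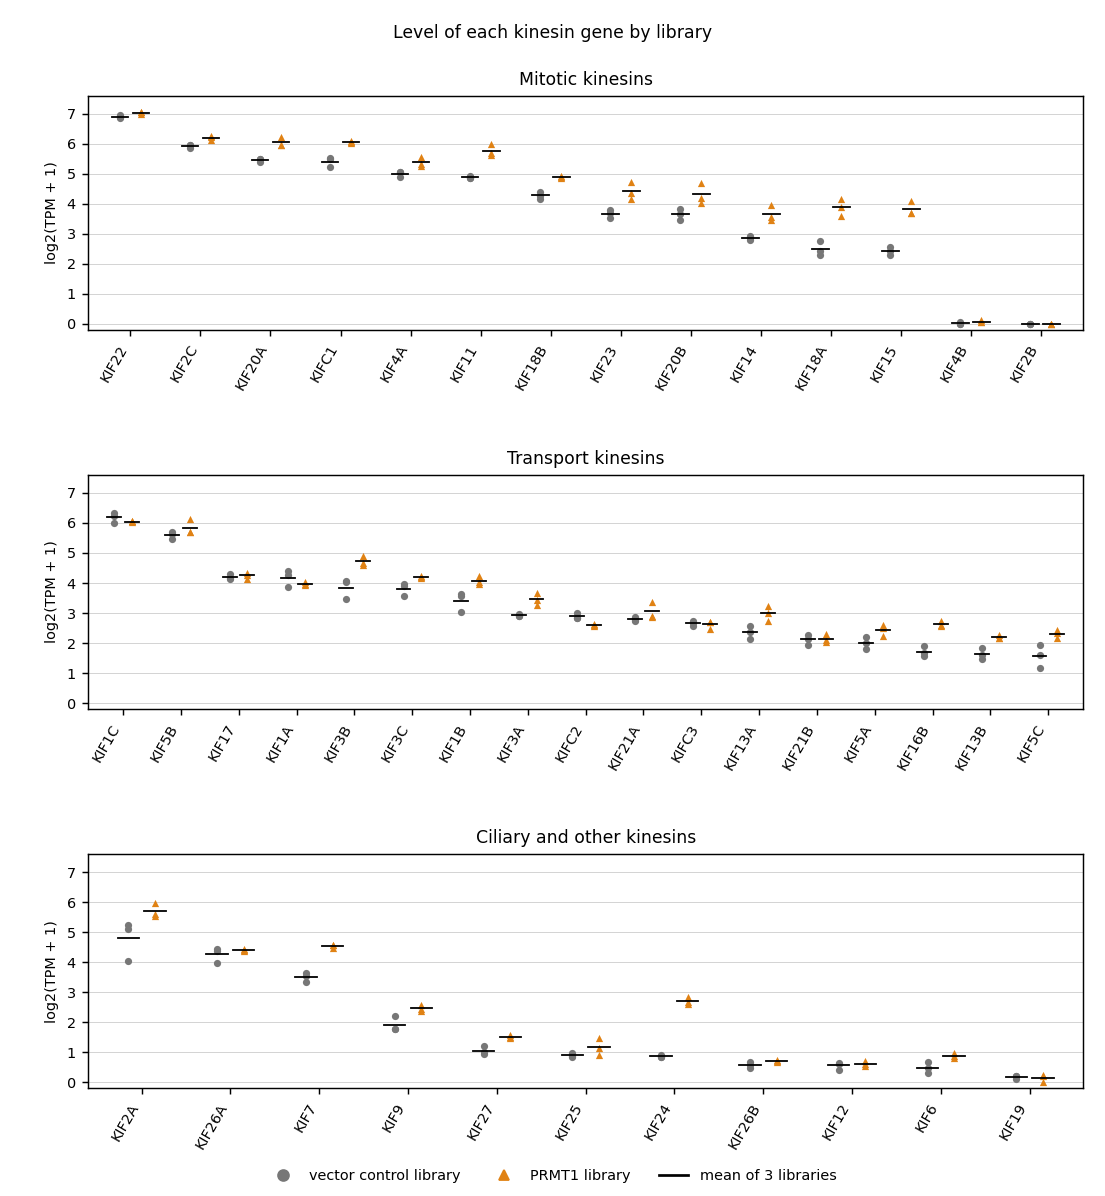
Level of each of the 42 kinesin genes in every library as log2(TPM + 1), in 3 panels by class, ordered by the control mean, with vector control libraries as grey circles, PRMT1 libraries as orange triangles and the mean of 3 libraries as a bar. KIF15, KIF18A and KIF24 have the widest gaps between groups, and KIF2B lies at 0 in all 6 libraries.

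**Figure D2:**
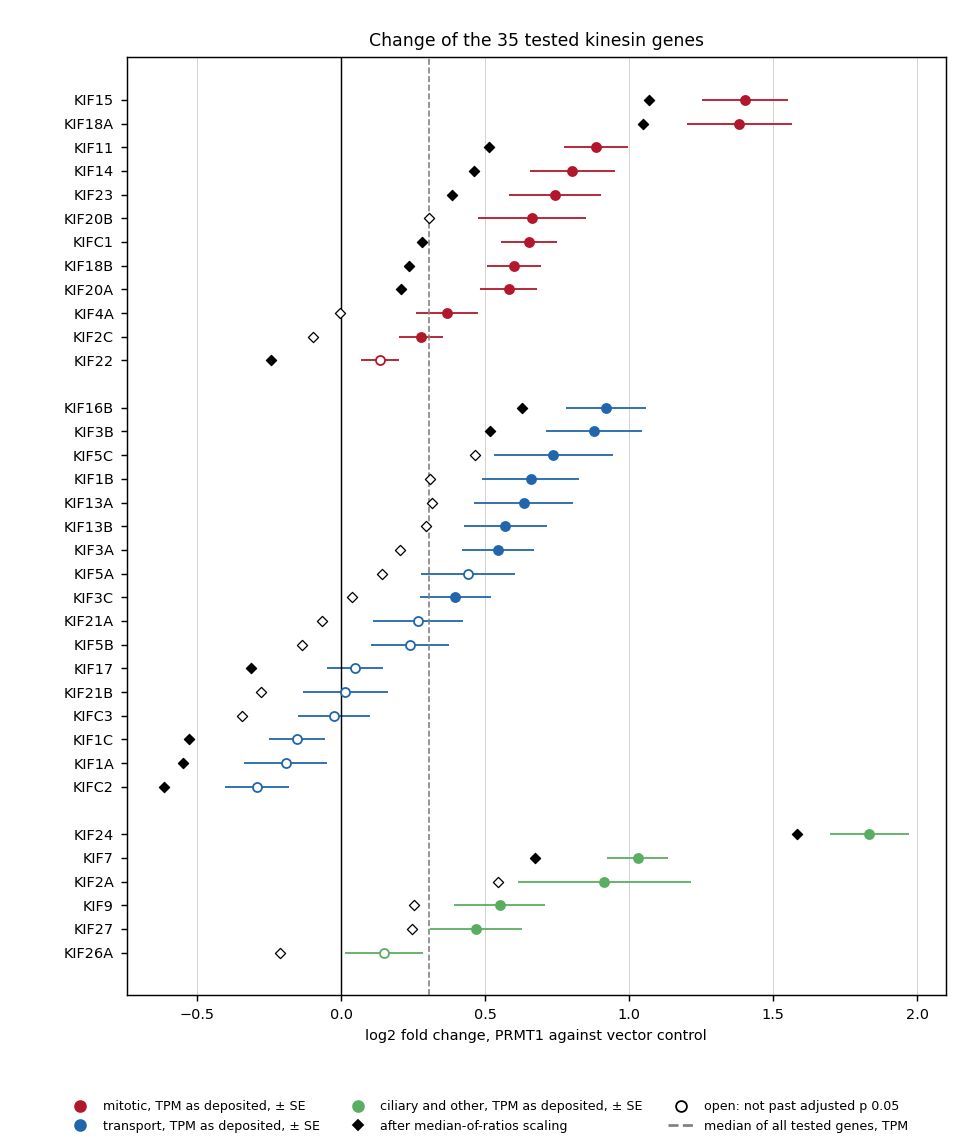
Log2 fold change of the 35 tested kinesins, PRMT1 against vector control, on TPM as deposited (circles with ± SE, filled where the adjusted p passed 0.05) and after median-of-ratios scaling (diamonds, filled where called), with the median of all tested genes at 0.30 as a dashed line. Every diamond lies to the left of its circle, and 8 transport kinesins, KIF22, KIF2C, KIF4A and KIF26A have a diamond below 0.

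The levels of mitotic kinesins spanned a wide range. KIF22, a chromosome-arm motor that pushes chromosomes toward the spindle equator, ranked highest of the 42 members in both groups, with control means of 118 TPM against 72.9 TPM for the next gene, the transport kinesin KIF1C, and no overlap between their libraries. KIF2C at 59.7 TPM, KIF20A at 43.1 TPM and KIFC1 at 41.5 TPM followed within the class, and the ranges of KIF20A and KIFC1 overlapped. At the other end, KIF15 and KIF18A were at 4.36 and 4.68 TPM in controls and their libraries overlapped. In the PRMT1 libraries they had moved from ranks 26 and 25 to ranks 21 and 20 of 42.

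KIF11, KIF15 and KIFC1 assemble the spindle. KIF11 (ENSG00000138160, GRCh38 chr10:92593286-92655395) encodes the tetrameric motor that slides antiparallel microtubules apart to separate the spindle poles. Its level was 29.5, 27.9 and 28.2 TPM in vector control libraries 1 to 3 and 50.2, 63.0 and 48.4 TPM in PRMT1 libraries 1 to 3. All PRMT1 libraries were above all controls, with PRMT1 2 the highest, and the log2 fold change was 0.88 ± 0.11 (SE, n = 3 per group, limma adjusted p = 0.000743). After median-of-ratios scaling it was 0.51. KIF15 (ENSG00000163808, chr3:44761717-44873376) can take over from KIF11 in keeping spindles bipolar. It was at 4.32, 4.89 and 3.87 TPM in controls and 11.8, 16.1 and 11.9 TPM in PRMT1 libraries, a ratio of means of 3.04. The groups were far apart, and KIF15 had the largest log2 fold change among mitotic kinesins, 1.40 ± 0.15 (adjusted p = 0.00038), or 1.07 after median-of-ratios scaling. KIFC1 (ENSG00000237649, chr6:33391536-33409924) is the minus-end motor that focuses spindle poles and clusters extra centrosomes. Control libraries held 43.8, 44.5 and 36.0 TPM of it and PRMT1 libraries 66.9, 65.6 and 63.9 TPM. The PRMT1 values were tight and all above the controls, with a log2 fold change of 0.65 ± 0.10 (adjusted p = 0.00145).

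Chromosome alignment and microtubule shortening involve KIF18A, KIF18B, KIF2C, KIF4A and KIF22. KIF18A (ENSG00000121621, chr11:28020620-28108308), which dampens chromosome swings at the spindle equator, was at 5.78, 4.31 and 3.95 TPM in controls and 13.8, 16.8 and 11 TPM in PRMT1 libraries. The lowest PRMT1 library lay well above the highest control, and the log2 fold change was 1.38 ± 0.18 (adjusted p = 0.000908), or 1.05 after median-of-ratios scaling. KIF18B (ENSG00000186185, chr17:44924709-44947711), which acts at astral microtubule ends, rose from 18.5 ± 1.63 to 28.5 ± 0.863 TPM (SD, log2 fold change 0.60 ± 0.09, adjusted p = 0.0017). KIF2C, the centromeric microtubule depolymerase also called MCAK, was at 60.4, 61.6 and 57.0 TPM in controls and 73.9, 75.9 and 68.0 TPM in PRMT1 libraries. KIF4A, a chromosome-bound motor that also limits microtubule growth in the central spindle, was at 32.3, 32.6 and 28.6 TPM and at 39.1, 46.1 and 36.8 TPM. Both passed on TPM as deposited, with log2 fold changes of 0.28 ± 0.08 (adjusted p = 0.0186) and 0.37 ± 0.11 (adjusted p = 0.0233), and neither passed after median-of-ratios scaling, where the values were -0.10 and -0.0032, or under quantile normalization or the GC correction. KIF2C lost the call without vector control 1 (adjusted p = 0.0559) or PRMT1 1 (adjusted p = 0.0731), and KIF4A without vector control 1 or 3 or PRMT1 1 or 2, with an adjusted p of at most 0.0542. KIF22 was at 114, 124 and 117 TPM in controls and 132, 133 and 125 TPM in PRMT1 libraries. These groups did not overlap either, yet the difference of 0.13 ± 0.07 did not pass (adjusted p = 0.131), and after median-of-ratios scaling KIF22 was called lower (-0.24, adjusted p = 0.0386), whereas with PRMT1 taken out it was called higher (0.24, adjusted p = 0.0148).

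KIF20A, KIF20B, KIF23 and KIF14 act late, at the central spindle and midbody. KIF20A (ENSG00000112984, chr5:138178719-138187715) brings the chromosomal passenger complex to the central spindle. It was at 44.3, 44.3 and 40.8 TPM in controls and 60.6, 74.3 and 60.9 TPM in PRMT1 libraries. Here too every PRMT1 library was above every control (log2 fold change 0.58 ± 0.10, adjusted p = 0.00262). KIF23, the motor of the centralspindlin complex, was at 12.9, 10.6 and 11.9 TPM against 19.5, 25.7 and 16.7 TPM. KIF14, which recruits the citron kinase, was at 6.61, 5.90 and 6.19 TPM against 10.7, 14.6 and 10.0 TPM. Both rose on TPM as deposited, by 0.74 ± 0.16 (adjusted p = 0.0068) and 0.80 ± 0.15 (adjusted p = 0.00359), and both missed the threshold under quantile normalization, with adjusted p-values of 0.068 and 0.0516. KIF23 also missed it under the GC correction (0.28, adjusted p = 0.0737). KIF20B, a microtubule bundler of cytokinesis, was at 11.7, 9.92 and 13.3 TPM in controls and 17.4, 25.1 and 15.4 TPM in PRMT1 libraries. Its difference of 0.66 ± 0.19 passed with all 6 libraries (adjusted p = 0.0207) and not without vector control 2 (0.56, adjusted p = 0.063) or vector control 1 (0.67, adjusted p = 0.0505). It also did not pass after median-of-ratios scaling (0.30, adjusted p = 0.178), under quantile normalization (0.28) or under the GC correction (0.10). PRMT1 library 2 was the highest in 11 of the 12 tested mitotic kinesins. Without it and vector control 3, the log2 fold changes of KIF15, KIF18A and KIF11 were 1.20, 1.15 and 0.76, each still called.

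The remaining mitotic members were not tested. KIF4B, an intronless copy of KIF4A, had 1 read in the controls and 4 in the PRMT1 libraries, and reads of the near-identical KIF4A and KIF4B could be exchanged between them. KIF2B had 0 reads in every library. CENPE, a kinesin of the kinetochore outside the symbol rule, was at 4.28, 4.64 and 5.66 TPM in controls and 5.57, 8.82 and 5.23 TPM in PRMT1 libraries. Those ranges overlapped, and CENPE did not pass (0.34 ± 0.20, adjusted p = 0.182).

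The letters around the transcription starts of kinesin genes were read from the promoter windows of RefSeq (GRCh38.p14, 250 bases before to 50 bases after each start). Windows were found for 34 of 42 members and for 27305 genes in all. The cell cycle genes homology region is a short promoter element of many mitotic genes, spelled TTTGAA, with a known variant, which is spelled TTCGAA. It is often paired with the box CCAAT. Each motif was searched on both strands, and a match on the other strand appears below as its reverse complement. The homology element in either spelling was present in 11 of 14 mitotic kinesins (78.6%), in 1 of 12 transport kinesins (8.33%), in 1 of 8 ciliary and other kinesins (12.5%) and in 19.5% of all genes. The mitotic counts include the untested KIF4B, which holds it in a window that nearly repeats that of KIF4A. They also include the untested KIF2B, which does not hold it. The CCAAT box was present in 11 of 14 mitotic kinesins, 4 of 12 transport kinesins, 3 of 8 others and 39.7% of all genes. Both together were found in 10 of 14 mitotic kinesins (71.4%), against 7.85% of all genes. A motif resembling an E2F site, spelled TTCCCGC or in a further version TTGGCGC, was in 3 of 14 mitotic and 3 of 12 transport kinesins and in 11% of all genes. Windows of 30 bases around the match are shown for the tested mitotic kinesins and for the only 2 members of the other classes that hold one, each read 5′ to 3′ on the strand of the gene, with the motif in capitals.
KIF11, chr10:92593090-92593119, plus strand: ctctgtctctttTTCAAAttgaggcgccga
KIF15, chr3:44761747-44761776, plus strand: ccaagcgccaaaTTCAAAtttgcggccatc
KIFC1, chr6:33391815-33391844, plus strand: tggccgttggaaTTCAAAagtggcgggtgt
KIF18A, chr11:28108149-28108178, minus strand: aagtggcttgggTTTGAAtattgtggttga
KIF18B, chr17:44947754-44947783, minus strand: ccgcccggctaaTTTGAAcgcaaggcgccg
KIF14, chr1:200620733-200620762, minus strand: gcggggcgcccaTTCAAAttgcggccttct
KIF23, chr15:69414282-69414311, plus strand: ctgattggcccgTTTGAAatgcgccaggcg
KIF4A, chrX:70290058-70290087, plus strand: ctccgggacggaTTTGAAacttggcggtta
KIF20B, chr10:89701602-89701631, plus strand: tggccgccattgTTTGAATTTGAAaacggt
KIF22, chr16:29790712-29790741, plus strand: ggcaccggggaaTTCGAAtgggagaggcgg
KIF24, chr9:34329250-34329279, minus strand: acagcgcgggcgTTCGAActggcgcttggc
KIF5B, chr10:32056548-32056577, minus strand: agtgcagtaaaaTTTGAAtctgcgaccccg

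The match began 28 bases before the start in KIF11, 35 before in KIF15, 34 before in KIF4A and 10 before in KIF18A. It began 27 before in KIF22, 55 before in KIF23 and 140 before in KIF5B. In KIF14, KIF18B, KIFC1, KIF20B and KIF24 it began at or after the start, at positions 1, 2, 4, 24 and 1. KIF20B holds 2 adjacent copies. The KIF24 window lies outside the span chr9:34252381-34311371 given for this gene below, upstream of it, and so belongs to another start. In KIF11, KIF14, KIF4A and KIF18A the nearest CCAAT box began 25, 23, 24 and 35 bases further upstream. The distance was 34 in KIF18B, 39 in KIF22, 48 in KIF24 and 50 in KIFC1, but 9 in KIF23 and 122 in KIF20B. In KIF5B the box lay 81 bases downstream of the match instead, and KIF15 held no CCAAT box in its window. The motif was set beside the calls of the mitotic genes as a description, and a link between them was not tested. After median-of-ratios scaling, 7 of the 8 called higher held the homology element, as did 2 of the 3 not called and KIF22, which was called lower. KIF20A, which was higher in all 6 settings, and KIF2C did not hold it in this window. A longer stretch upstream of the start is shown for KIF11, with both elements in capitals, beside that of KIF3B, a transport kinesin with a rise of the same size that holds a CCAAT box only, and that of KIF7, which was also called higher in all 6 settings and holds neither element there.
KIF11, chr10:92593010-92593129, plus strand: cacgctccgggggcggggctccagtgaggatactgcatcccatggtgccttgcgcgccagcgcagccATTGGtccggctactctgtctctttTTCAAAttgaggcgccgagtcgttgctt
KIF3B, chr20:32277531-32277650, plus strand: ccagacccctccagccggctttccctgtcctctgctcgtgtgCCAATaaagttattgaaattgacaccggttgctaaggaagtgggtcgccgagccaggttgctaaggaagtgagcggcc
KIF7, chr15:89655468-89655587, minus strand: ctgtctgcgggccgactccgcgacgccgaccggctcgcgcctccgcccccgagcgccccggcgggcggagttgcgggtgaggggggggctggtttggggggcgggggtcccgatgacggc

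Among transport kinesins, the subunits of heterotrimeric kinesin rose while the largest contributors, KIF1C and KIF5B, did not pass. KIF3A and KIF3B pair with each other and carry ciliary and vesicle cargo, and KIF3C is an alternative partner of KIF3A. KIF3B (ENSG00000101350, chr20:32277664-32335011) was at 15.6, 15.2 and 10.2 TPM in controls and 23.5, 28.7 and 24.5 TPM in PRMT1 libraries. Vector control 3 was the lowest library, and the groups did not overlap with or without it (0.88 ± 0.17, adjusted p = 0.00412, and 0.52 after median-of-ratios scaling). KIF3A was at 6.54, 6.43 and 6.74 TPM against 9.83, 11.8 and 8.74 TPM. KIF3C was at 14.8, 13.8 and 10.8 TPM against 17.6, 17.7 and 17.1 TPM. Both passed on TPM as deposited (0.55 ± 0.13, adjusted p = 0.00907, and 0.40 ± 0.12, adjusted p = 0.0304) and neither after median-of-ratios scaling (0.21 and 0.04). KIF3C also lost the call when any PRMT1 library was left out, with adjusted p-values of up to 0.0839. KIF17, a homodimeric ciliary and dendritic motor, was at 16.9, 18.9 and 16.6 TPM in controls and 19.0, 16.7 and 18.5 TPM in PRMT1 libraries. The groups overlapped, and its difference of 0.05 ± 0.10 did not pass (adjusted p = 0.709). After median-of-ratios scaling KIF17 was called lower (-0.31, adjusted p = 0.0469).

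KIF5A, KIF5B and KIF5C are the heavy chains of conventional kinesin, which moves mitochondria and vesicles. KIF5B, the widely expressed form, made up 90.5% of their summed TPM in controls. It was at 51.4, 48.9 and 43.1 TPM there and at 51.6, 69.2 and 50.4 TPM in PRMT1 libraries. Only PRMT1 library 2 was far above the controls, and KIF5B did not pass (0.24 ± 0.13, adjusted p = 0.176). Under the GC correction it was called lower (-0.28, adjusted p = 0.00429). KIF5C, a mainly neuronal form, was at 2.06, 2.84 and 1.26 TPM against 3.54, 4.41 and 4.01 TPM. It passed (0.74 ± 0.21, adjusted p = 0.021) and lost the call without PRMT1 library 2 (0.68, adjusted p = 0.0662) or PRMT1 library 3 (0.73, adjusted p = 0.0531). Nor was it called after median-of-ratios scaling (0.46, adjusted p = 0.0717), under quantile normalization (0.31), under the GC correction (0.34) or without both libraries that stood apart (0.48). KIF5A, the other neuronal form, was at 2.98, 3.64 and 2.48 TPM against 3.69, 5.00 and 4.70 TPM. The groups of KIF5A were adjacent without overlap and the test did not pass (0.44 ± 0.16, adjusted p = 0.0566), though it did without vector control 2 (adjusted p = 0.0438) or PRMT1 1 (adjusted p = 0.0494), and with PRMT1 taken out (0.53, adjusted p = 0.0262).

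KIF1A, KIF1B and KIF1C carry synaptic vesicle precursors, mitochondria and Golgi-derived vesicles. KIF1B was at 10.9, 11.4 and 7.28 TPM in controls and 14.5, 17.8 and 15.5 TPM in PRMT1 libraries. KIF1C (ENSG00000129250, chr17:4997948-5028401) was at 75, 80.4 and 63.2 TPM and at 64.0, 66.0 and 65.4 TPM. KIF1A was at 18.2, 20.2 and 13.5 TPM and at 15.2, 14.7 and 14.4 TPM. In both KIF1A and KIF1C, vector control 3 lay below all PRMT1 libraries and the other controls lay above them. KIF1B rose (0.66 ± 0.17, adjusted p = 0.0143), but not without PRMT1 library 2 (adjusted p = 0.0507), nor after median-of-ratios scaling (0.31, adjusted p = 0.0809), under quantile normalization (0.25, adjusted p = 0.136) or under the GC correction (0.28, adjusted p = 0.0856). KIF1C and KIF1A did not pass (-0.15 ± 0.10 and -0.19 ± 0.15, adjusted p = 0.227 and 0.299). Without vector control 3 they were called lower, with log2 fold changes of -0.25 and -0.35 (adjusted p = 0.0209 and 0.0194), and likewise after median-of-ratios scaling (-0.53 and -0.55).

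KIF13A, KIF13B and KIF16B move endosomes and related membranes. KIF16B (ENSG00000089177, chr20:16272104-16573434), a motor of early endosomes, was at 2.73, 1.98 and 2.19 TPM in controls and 5.11, 5.65 and 4.90 TPM in PRMT1 libraries. With a ratio of means of 2.27 it had the largest log2 fold change of the transport class, 0.92 ± 0.14 (adjusted p = 0.00159), or 0.63 after median-of-ratios scaling. KIF13A rose from 4.17 ± 0.801 to 7.03 ± 1.34 TPM (adjusted p = 0.0182) and KIF13B from 2.13 ± 0.385 to 3.62 ± 0.154 TPM (adjusted p = 0.0134), neither of them past the threshold after median-of-ratios scaling. KIF13A lost the call without PRMT1 library 2 (0.52, adjusted p = 0.0567).

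KIF21A, KIF21B, KIFC2 and KIFC3 did not pass. KIF21A and KIF21B restrain microtubule growth. KIF21A was at 5.84, 5.65 and 6.24 TPM against 6.53, 9.41 and 6.32 TPM (0.27 ± 0.16, adjusted p = 0.189). KIF21B was at 3.84, 3.44 and 2.84 TPM against 3.06, 3.27 and 3.90 TPM (0.01 ± 0.15, adjusted p = 0.946). In KIF21A the lowest PRMT1 library lay just above the highest control and PRMT1 library 2 far above both, and the groups of KIF21B overlapped. KIFC2, a minus-end motor with a neuronal role, was at 6.18, 7.02 and 6.14 TPM in controls and 4.92, 5.13 and 5.16 TPM in PRMT1 libraries. It was the only member with all PRMT1 libraries below all controls (-0.29 ± 0.11, adjusted p = 0.0585), and was called lower after median-of-ratios scaling (-0.62, adjusted p = 0.00221). KIFC3, a minus-end motor of cell junctions, was at 5.39, 5.70 and 4.92 TPM against 5.58, 4.57 and 5.55 TPM, with groups that overlapped (-0.03 ± 0.12, adjusted p = 0.877). Under quantile normalization KIF21B (-0.43, adjusted p = 0.035) and KIFC3 (-0.49, adjusted p = 0.0191) were called lower.

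KIF24 and KIF7, both of the primary cilium, were the members of the remaining class that were called higher in all 6 settings. KIF24 (ENSG00000186638, chr9:34252381-34311371) encodes a microtubule depolymerase of the mother centriole that holds back cilium formation. It was at 0.807, 0.794 and 0.891 TPM in controls and 5.09, 6.12 and 5.40 TPM in PRMT1 libraries, from 92 reads in the controls together and 635 in the PRMT1 libraries. No control reached 1 TPM, so KIF24 entered the test through its PRMT1 libraries alone and had to differ. With a ratio of means of 6.67 it had the largest log2 fold change of all members, 1.83 ± 0.14 (adjusted p = 0.000121), or 1.58 after median-of-ratios scaling. KIF7 (ENSG00000166813, chr15:89608789-89655451) organises the cilium tip and regulates the GLI factors of Hedgehog signalling. Its level was 9.2, 11.6 and 10.6 TPM in controls and 21.3, 22.6 and 23.1 TPM in PRMT1 libraries. The PRMT1 libraries clustered tightly above all controls (1.03 ± 0.11, adjusted p = 0.000351, and 0.67 after median-of-ratios scaling).

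KIF2A (ENSG00000068796, chr5:62306162-62537249) encodes a depolymerase of spindle poles and of neurites. It was at 33.7, 36.8 and 15.5 TPM in controls and 48.3, 62.3 and 45.2 TPM in PRMT1 libraries. Vector control 3 was far below the other controls, and KIF2A passed with the largest SE of any member (0.91 ± 0.30, adjusted p = 0.0372). Without vector control 3 the difference was 0.54 (adjusted p = 0.0235). Leaving out PRMT1 libraries 1, 2 or 3 gave 0.96, 0.78 and 1.00 and ended the call (adjusted p of 0.07, 0.122 and 0.0541). The call was also lost after median-of-ratios scaling (0.54, adjusted p = 0.113), under quantile normalization (0.69, adjusted p = 0.0566) and under the GC correction (0.45, adjusted p = 0.177). KIF9 and KIF27, known from motile and primary cilia, were at 2.82 ± 0.679 and 1.08 ± 0.224 TPM in controls and 4.55 ± 0.364 and 1.87 ± 0.0942 TPM in PRMT1 libraries. Both passed on TPM as deposited (adjusted p = 0.0229 and 0.0415). Neither call survived median-of-ratios scaling, KIF27 lost it without any 1 of the 6 libraries (adjusted p of 0.0506 to 0.119), and KIF9 without vector control 2 or 3 or PRMT1 2 or 3 (at most 0.07). KIF26A, an unconventional kinesin that lacks ATPase activity, was at 19.8, 20.8 and 14.6 TPM against 20.7, 19.98 and 20.1 TPM and did not pass (0.15 ± 0.13, adjusted p = 0.388). The other members of this class, KIF25, KIF26B, KIF12, KIF6 and KIF19, were too low for the test, with means between 0.118 and 1.28 TPM. In a fit without the filter none of them was called. KIF6 came nearest, with 88 reads in controls and 188 in PRMT1 libraries and no overlap (0.40, adjusted p = 0.102).

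Several members share exonic bases with a neighbour, and the strand setting of the counting is not given in the sources used here, so the reads they share cannot be assigned. KIF7 shares 589 bases (11.8% of its exonic length) with TICRR on the opposite strand, which was higher as well (7.17 and 14.1 TPM, log2 fold change 0.89). KIF9 shares 870 bases (14.9%) with its antisense RNA KIF9-AS1 (0.70). KIF2A shares 428 bases (8.97%) with IPO11 on the same strand (0.96). KIF24 shares 143 bases (2.33%) with UBAP1 (0.62), and KIF18A 61 bases with METTL15. KIF20A shares 132 bases (3.3%) with BRD8 (0.56) and 68 bases with CDC23 (0.59). KIF4A shares 77 bases with PDZD11 (0.14). KIFC2 shares 791 bases with FOXH1, which was at most at a mean of 0.458 TPM. The part of these overlaps in the results was not tested.

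As sums, mitotic kinesins had a larger ratio between groups than transport kinesins, a difference that was not tested. TPM is a level per length, so levels of different genes can be added. The mitotic sum was 384, 391 and 364 TPM in controls and 524, 585 and 497 TPM in PRMT1 libraries, a ratio of means of 1.41. For transport kinesins the sum was 244, 253 and 203 TPM against 257, 292 and 260 TPM, a ratio of 1.16. Ciliary and other kinesins summed to 70.8, 75.9 and 47.0 TPM against 105, 121 and 104 TPM, a ratio of 1.70. Much of that sum was KIF2A, with 28.6 of a mean of 64.6 TPM in controls and 51.9 of 110 TPM in PRMT1 libraries. In vector control 3, KIF2A was at 15.5 TPM. In none of the 3 classes did the groups overlap, although vector control 2 of the transport sum came close to PRMT1 library 1. Without vector control 3 and PRMT1 2 the log2 ratio of the transport sums was 0.055, and after median-of-ratios scaling it was -0.17, whereas the mitotic log2 ratio was 0.11 after that scaling. A share within a library does not change when the whole library is multiplied by 1 factor, though quantile normalization can change it. A trend with GC content can change it too, and mitotic kinesins had a lower median GC content (44.3%) than transport kinesins (51.5%). The part of that trend in the share was not tested. The mitotic share of mitotic plus transport TPM, chosen after its values were seen, was 61.1, 60.7 and 64.2% in controls and 67.1, 66.7 and 65.7% in PRMT1 libraries. The groups did not overlap. As a share of all kinesin TPM, mitotic kinesins held 56.2 ± 2.74% and 58.5 ± 0.72% (SD), with vector control 3 above all PRMT1 libraries (exact two-sided permutation p = 0.4).

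Within families, the makeup by isotype was compared over 22 shares by an exact two-sided permutation test of 3 against 3 libraries, whose smallest possible p is 0.1. KIF18A made up 20.1 ± 3.39% and 32.5 ± 4.35% of KIF18A plus KIF18B (SD), the libraries being at 24, 17.6 and 18.9% and at 33.3, 36.4 and 27.8%. KIF1B took 9.76 ± 0.954% and 16.6 ± 1.34% of the KIF1 genes, and KIF1C 73.1 ± 1.94% and 68.0 ± 0.841%. KIF3B took 40.6 ± 3.45% and 48.1 ± 1.66% of the KIF3 genes, and KIF3C 39.3 ± 0.615% and 33.0 ± 2.20%. In each of these the libraries of the groups did not overlap (exact permutation p = 0.1). Among the C-terminal motors, KIFC1 held 77.8 ± 1.31% in controls and 86.4 ± 0.738% in PRMT1 libraries, while KIFC2 held 12.1 ± 0.95% and 6.69 ± 0.296% and KIFC3 10.0 ± 0.373% and 6.91 ± 0.731% (exact permutation p = 0.1 each). KIF5B made up 90.5 ± 1.94% and 87.0 ± 1.52% of the KIF5 genes and KIF5C 3.82 ± 1.23% and 6.14 ± 0.60% (exact permutation p = 0.1 each). KIF2A made up 31.5 ± 8.83% and 41.5 ± 3.10% of KIF2A plus KIF2C, where vector control 3 stood at 21.4%. The shares of KIF13A, KIF20A, KIF21A and KIF3A in their families had exact p-values of 0.8, 0.7, 0.5 and 0.8. With 3 libraries a group, none of these shares could reach a p under 0.05, and none would pass an adjustment over the shares. The isotypes also differ in GC content. KIF18A had 37.1% and KIF18B 60.4%, KIF1B 46.2% and KIF1C 55.9%, and KIFC1 56.3% and KIFC2 68.0%. In the KIF5 genes, KIF5B, at 39.3%, had the smaller share in PRMT1 libraries than in controls, and KIF5C, at 45.1%, the larger. The part of a GC trend in these shares was not tested.

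**Figure D3:**
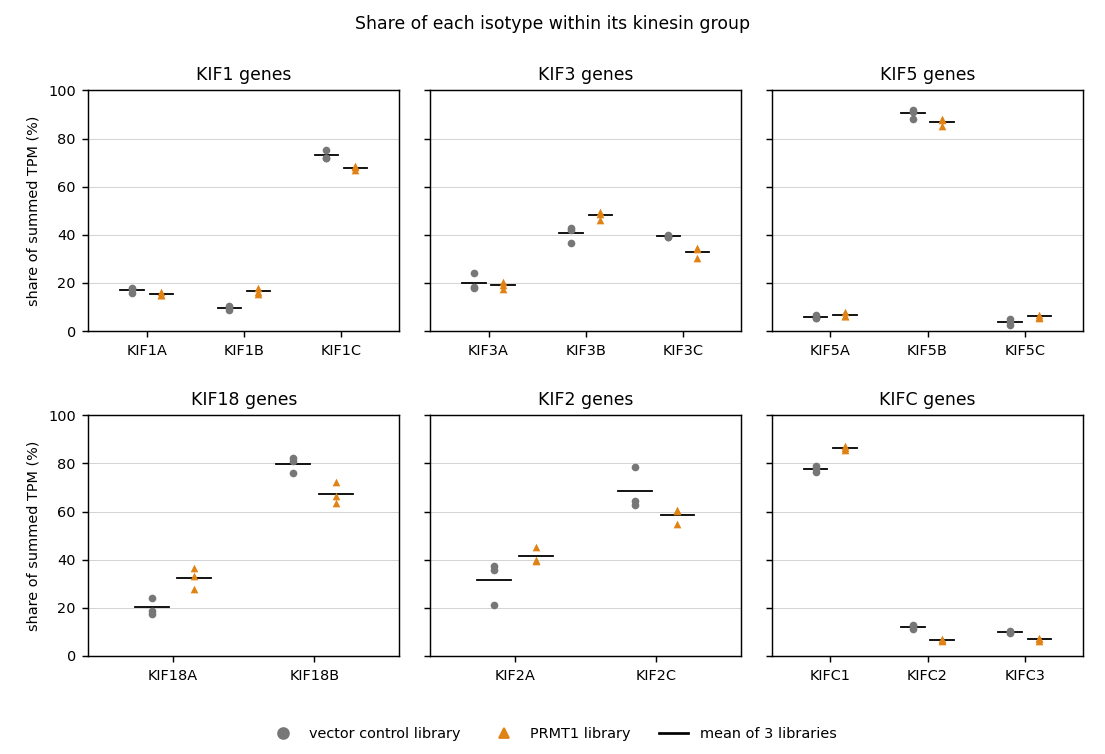
Share of each isotype in the summed TPM of its kinesin family, in percent, in vector control libraries (grey circles) and PRMT1 libraries (orange triangles), with the mean of 3 libraries as a bar. KIF18A, KIF1B, KIF3B and KIFC1 take a larger share in the PRMT1 libraries and KIF18B, KIF1C, KIF3C and KIFC2 a smaller one, without overlap.

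Kinesins with GC-rich transcripts had smaller log2 fold changes. Across the 35 tested members, log2 fold change and GC content had a Pearson r of -0.52 and a Spearman rho of -0.53, given as a description across genes that share the same 6 libraries. The median GC content was 46.4% for members called higher and 59.3% for those not called. Among all tested genes the median log2 fold change fell in step from 0.51 in the decile with the lowest GC content (median 38.4%) to 0.01 in the decile with the highest (64.1%). Mitotic kinesins had a median GC content of 44.3%, transport kinesins 51.5% and all tested genes 49.7%. After a correction that removed the GC trend in each library and thereby also centred it, 7 of 12 mitotic kinesins were higher and 0 lower, and 2 of 17 transport kinesins were higher and 3 lower, beside 23.4% of all genes higher and 25.4% lower. KIF15, KIF18A and KIF11 then had log2 fold changes of 0.91, 0.84 and 0.35, and KIF7 and KIF24, which lie above the trend in the plot of change by GC content, had 0.96 and 1.5.

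**Figure D4:**
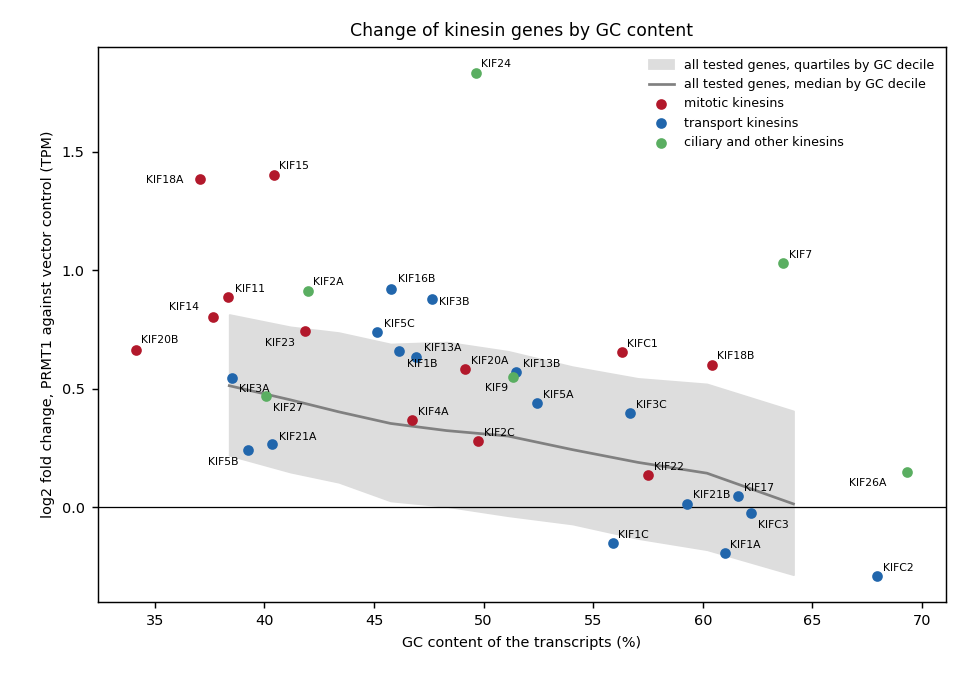
Log2 fold change of the 35 tested kinesins on TPM as deposited against the GC content of their transcripts in percent, coloured by class, with the median (line) and quartiles (band) of all tested genes by decile of GC content. The band and line run from 38.4% to 64.1%, the lowest and highest decile medians. KIF24, KIF15 and KIF7 lie far above the band, and KIF18A, at 37.1%, lies to the left of it and higher than its end. Among transport kinesins, KIF1A, KIF1C and KIFC3 lie below 0 and below the line, and KIFC2, at 68.0%, lies to the right of it and below 0.

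Kinesins carry cargo through light chains and adaptors, and those were read from a list of 21 genes. Of these, 13 were higher and 0 lower on TPM as deposited, beside 40.3% and 8.64% of all genes, with a median log2 fold change of 0.38. After median-of-ratios scaling 6 were higher and 3 lower, beside 22.5% and 25.5% of all genes. Both higher counts include TRAK2, at 0.505, 0.950 and 0.719 TPM in controls. It reached the filter only through its PRMT1 libraries, which favours a call as higher. KIFBP, which binds the motor domain of several kinesins and blocks their attachment to microtubules, was at 9.31, 7.84 and 9.29 TPM in controls and 25.5, 27.6 and 22.6 TPM in PRMT1 libraries. The groups were far apart (1.42 ± 0.11, adjusted p = 0.000149), and the rise was 1.06 after median-of-ratios scaling. KIFAP3, the cargo subunit shared by KIF3A and KIF3B, passed on TPM as deposited (0.37, adjusted p = 0.0455) and with PRMT1 taken out (0.48, adjusted p = 0.0139). It did not pass after median-of-ratios scaling (0.01), under quantile normalization (0.03), under the GC correction (-0.14) or without both libraries that stood apart (0.17, adjusted p = 0.0632). The light chains KLC1, KLC2 and KLC4 were called higher (0.43, 0.28 and 0.56, adjusted p = 0.0229, 0.0143 and 0.0055). After median-of-ratios scaling none of these 3 was called, at 0.14, -0.09 and 0.23, and none under quantile normalization. KLC3 did not pass (-0.07, adjusted p = 0.582) and was lower after that scaling (-0.41, adjusted p = 0.0122).

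Among partners of the mitotic kinesins at the spindle and in cytokinesis, 17 of 26 were higher and 0 lower, with a median of 0.59, beside 40.3% and 8.64% of all genes. After median-of-ratios scaling 10 were higher and 5 lower, beside 22.5% and 25.5%. TACC3, which stabilises spindle microtubules, was at 19.5 ± 1.42 and 44.5 ± 1.51 TPM (1.16, adjusted p = 0.000122), and PRC1, the bundler on which KIF4A and KIF20A act, at 77.8 ± 3.86 and 159.5 ± 13.3 TPM (1.02, adjusted p = 0.000151). Both remained called after median-of-ratios scaling (0.79 and 0.65). For dynein and dynactin, the minus-end motor that opposes kinesins, 13 of 32 genes were higher and 3 lower, near the 40.3% and 8.64% of all genes, with a median of 0.21 beside 0.30. After median-of-ratios scaling 5 were higher and 10 lower, beside 22.5% and 25.5% of all genes. The dynein regulator PAFAH1B1 (1.45, adjusted p = 0.00019) and the adaptor HOOK2 (1.03, adjusted p = 0.00147) rose, and the light chain DYNLL2 (-0.40, adjusted p = 0.00228) and the actin-capping subunit CAPZB (-0.26, adjusted p = 0.0141) fell, the last not under quantile normalization (adjusted p = 0.0823) or with PRMT1 taken out (-0.15, adjusted p = 0.0771). In the list of intraflagellar transport and Hedgehog genes, which work with KIF3A, KIF3B, KIF17 and KIF7, 15 of 27 were higher and 0 lower (all genes 40.3% and 8.64%), and 5 were higher and 3 lower after median-of-ratios scaling (all genes 22.5% and 25.5%). TULP3, which brings receptors into the cilium, was at 16.3 ± 1.23 and 35.7 ± 2.42 TPM (1.09, adjusted p = 0.000199), and the transport subunit IFT46 at 12.5 ± 1.11 and 23.2 ± 1.88 TPM (0.84, adjusted p = 0.000745).

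**Figure D5:**
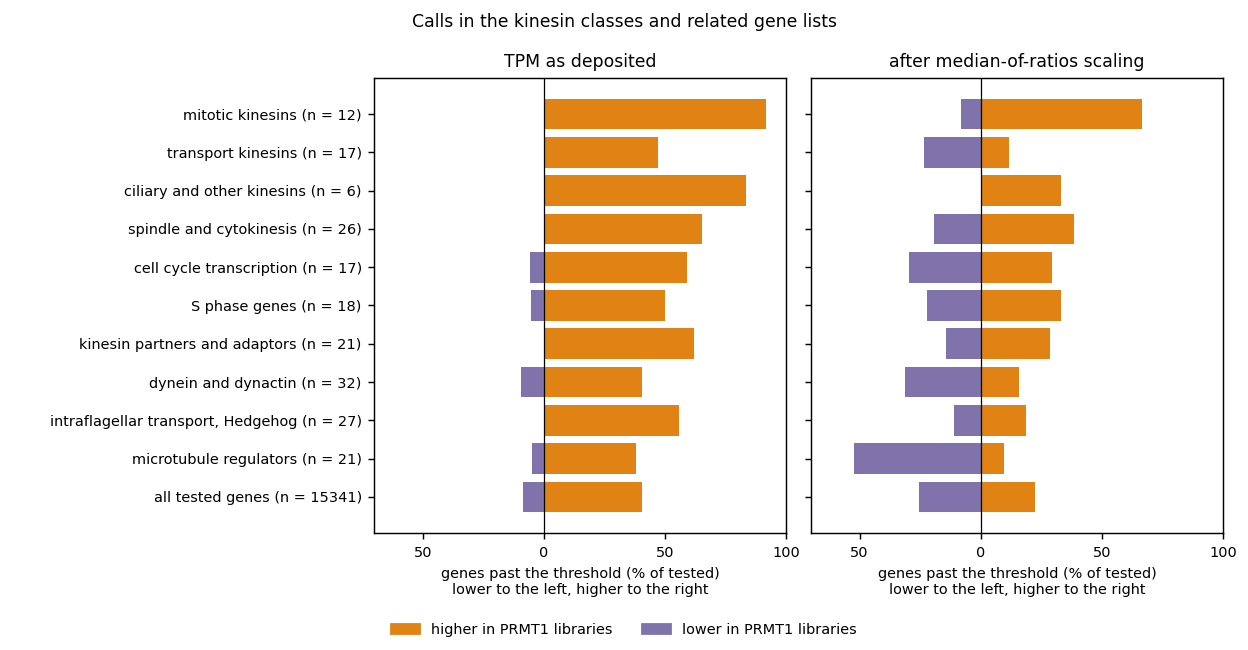
Percent of tested genes called higher (orange, to the right) and lower (purple, to the left) in the PRMT1 libraries in each kinesin class, in related gene lists and among all tested genes, on TPM as deposited (left) and after median-of-ratios scaling (right), with the number of tested genes in parentheses. Mitotic kinesins have the largest orange bars in both panels, 11 and 8 of 12.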

How the data were processed

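PolyA-selected RNA of 3 vector control and 3 PRMT1 libraries was sequenced. The authors deposited 1 table of TPM, in which each column adds up to 1000000. Per the submitters' processing notes, GRCh38, STAR 2.5.2b, Trimmomatic 0.36 and Subread 1.5.2 with featureCounts were used, in roles and order not stated. Annotation, strand setting and TPM formula were not given in the sources used here. Symbols came from a table of gene names (40907 of 57500 identifiers had one). Coordinates, gene types, exonic lengths and GC content came from GENCODE 29 on GRCh38. Multiplied by these lengths, 95.5 to 95.7% of values under 50 reads were whole within 0.05 of a read, which gave the depths. Genes reaching 1 TPM in 3 or more libraries entered a fit of log2(TPM + 1) by limma 3.58.1 (R 4.3.3, trended eBayes, no covariate), with Benjamini-Hochberg adjustment over all 15341 tested genes. Such fold changes understate those of low genes. Libraries of a group differed by more than counting noise (chi-square per degree of freedom 2.70 to 23.2), so none was taken for a duplicate.

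The members and the gene lists were chosen with earlier results of these data known. Members whose mean reached 1 TPM in either group are described, with named partners and, from each other list, up to 2 rising and 2 falling genes past the threshold with the smallest p and at least 5 TPM in the higher group. The values of 1 gene that this rule names are not reported here. Alternatives were other pseudocounts (0.1, 5 TPM), a filter of 5 TPM or none, scaling by median-of-ratios or by quantiles or with PRMT1 taken out, a GC correction by lowess, no variance trend, a replicate block, and leaving out each library or both that stood apart. Motifs were searched as written in RefSeq promoter windows.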

Additional observations from a re-analysis of the deposited data

How the results depend on the processing

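The counts and medians below depended most on how libraries were scaled. Median-of-ratios scaling gave 3448 genes higher and 3913 lower in all, 12 and 5 kinesins, 1 mitotic kinesin lower, 2 transport kinesins higher and 4 lower, and 2 others higher, with median log2 fold changes of 0.29, 0.039 and 0.40 for mitotic, transport and other kinesins. Its log2 ratios of summed TPM were 0.052 for all kinesins, 0.11 for mitotic, -0.17 for transport and 0.40 for others. It turned KIF26A (-0.21), KIF22 (-0.24), KIF2C (-0.10), KIF4A (-0.0032), KIF5B (-0.14), KIF17 (-0.31), KIF21A (-0.065), KIF21B (-0.28) and KLC2 (-0.090) below 0. Quantile normalization gave 3109 genes higher and 2979 lower, 10 and 5 kinesins, 6 mitotic kinesins higher, 2 transport kinesins higher and 5 lower, and 2 others higher, with medians of 0.36, 0.0057 and 0.38 and log2 ratios of sums of 0.21, 0.32, -0.085 and 0.46 in the same order. It turned KIF26A (-0.20), KIF17 (-0.31), KIF21A (-0.21), KIF21B (-0.43), KIF5A (-0.013), CENPE (-0.14) and KLC1 (-0.018). The GC correction gave 3575 genes higher and 3883 lower, 11 and 3 kinesins, 7 mitotic kinesins higher, 2 transport kinesins higher and 3 lower, and 2 others higher, with medians of 0.27, 0.016 and 0.35. It turned KIF27 (-0.036), KIF22 (-0.067), KIF2C (-0.051), KIF4A (-0.0011), KIF5B (-0.28), KIF17 (-0.068), KIF21A (-0.23), KIF21B (-0.16), CENPE (-0.21) and KIFAP3 (-0.14). With PRMT1 taken out, 880 genes were lower, the transport log2 ratio was 0.32 instead of 0.21, and KIFC3 (0.066) and KLC3 (0.029) turned above 0. The causes were not tested.

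At the filter of 5 TPM, 5 of 12 transport and 3 of 4 other kinesins were higher, with a median of 0.97 for the others. No filter gave 5 of 17 and 2 of 11, with a median of 0.40. Of all genes, 4546 of 10290 were higher at that filter and 5570 of 30385 without one. The pseudocount of 5 TPM gave a median of 0.55 for the others. A fit with no variance trend called 1 kinesin lower, of the transport class, beside 1109 of all 15341 genes. Without vector control 3 and PRMT1 2 together, 2115 genes were lower, 2 kinesins were lower, both of the transport class, and 3 others were higher with a median of 0.42. The log2 ratios were then 0.30 for all kinesins, 0.055 for transport and 0.51 for others, and KIFC3 (0.0048) and KIF21B (-0.056) changed sign. With each library left out in turn, transport kinesins called higher ranged from 4 to 9 and lower from 0 to 2, all kinesins lower from 0 to 2, and other kinesins higher from 2 to 4, with a median of 0.50 to 0.82 and a log2 ratio of sums of 0.58 to 0.90. Of all 15341 genes, 5082 to 5634 were higher and 935 to 1520 lower in these fits. KIF21B ranged from -0.077 to 0.090, KIF26A from -0.00089 to 0.24 and KIFC3 from -0.074 to 0.053. Of the 24 kinesins called higher, 14 kept the call in all 6 of these fits. The share of all genes that did so was not counted.

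Same-numbered libraries did not deviate together (r of -0.03, 0.06 and 0.02), so the replicate numbers were not taken as pairs. With the replicate block, 6275 genes were higher and 1314 lower, and KIF27 (adjusted p = 0.0748) was the kinesin that lost its call. Depth limits what can be said of KIF2B and KIF4B, with at most 4 reads in a group. With 3 libraries a group, an exact permutation test of a single value cannot go below 0.1.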

Other observations

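Gene lists that bear on when kinesin genes are transcribed and on the tracks they run along were also read. Among 18 genes of S phase, 9 were called higher and 1 lower on TPM as deposited, beside 40.3% and 8.64% of all tested genes, with a median log2 fold change of 0.36 beside 0.30 for all tested genes, and 6 were higher and 4 lower after median-of-ratios scaling, beside 22.5% and 25.5%. The licensing factor CDC6 was at 30.5, 32.7 and 26.9 TPM in controls and 68.6, 76.9 and 69.1 TPM in PRMT1 libraries (1.23 ± 0.10, limma adjusted p = 0.00014), and PCNA, the sliding clamp of replication, was at 299.6 ± 22.5 and 502.7 ± 33.7 TPM (0.75, adjusted p = 0.000395). RRM2, the small subunit of ribonucleotide reductase, fell from 237.9 ± 32.8 to 171.0 ± 22.4 TPM (-0.47, adjusted p = 0.0177). Of 17 transcription factors and MuvB subunits of the cell cycle, 10 were higher and 1 lower, against the same 40.3% and 8.64%. LIN52 (1.26, adjusted p = 0.000256) and LIN37 (1.13, adjusted p = 0.00036), subunits of the MuvB core that recognises the TTTGAA element, rose, and E2F1 fell (-0.36, adjusted p = 0.0047). After median-of-ratios scaling 5 of these 17 were higher and 5 lower, against 22.5% and 25.5% of all genes.

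Regulators of microtubules had the lowest median of the lists read, 0.05, with 8 of 21 higher and 1 lower on TPM as deposited (all genes 40.3% and 8.64%) and 2 higher and 11 lower after median-of-ratios scaling (all genes 22.5% and 25.5%). The severing enzyme KATNA1 (1.13, adjusted p = 0.000256) and the end-binding protein MAPRE3 (0.54, adjusted p = 0.00453) rose, the latter not after median-of-ratios scaling (0.18, adjusted p = 0.259) or under quantile normalization (0.19, adjusted p = 0.248). STMN2, a tubulin-binding protein of neurons, fell from 10.2 ± 0.701 to 7.11 ± 0.874 TPM (-0.47, adjusted p = 0.0139). STARD9, a centrosomal kinesin outside the symbol rule, was too low for the test at 0.437 ± 0.0813 and 0.801 ± 0.139 TPM.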
